A study of Sus scrofa with 2 samples.

Results

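The CEP genes encode centrosomal proteins that are named for their apparent size, and 36 of the 16509 protein-coding genes with a symbol in the RefSeq table for the pig genome build Sscrofa11.1 carry a name of this kind (CEP followed by a digit). They were selected on the peak lists described here: the family was picked for its high share of genes whose promoter held a peak in each of the lists, so that share is given as a description with no test. In the deposited lists, 31 of 10273 peaks in replicate 1 and 28 of 7301 peaks in replicate 2 were assigned to a CEP gene. The data came from CUT&Tag, in which a transposase is tethered through an antibody and cuts out the DNA beside the protein of interest for sequencing. The antibody was against ZBTB16 (PLZF), a DNA-binding repressor with zinc fingers that marks undifferentiated spermatogonia. The 1 group comprised 2 libraries, replicate 1 and replicate 2, each from 100000 wild-type (WT) immature spermatogonia of pig testis, with no treatment and no age given in the labels. The purpose was to find the genes that ZBTB16 occupies there. A peak list does not measure expression, so the labelled cell type could not be checked against its markers.

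A centrosome holds a pair of centrioles, barrels of microtubules that duplicate once in each cell cycle, inside a matrix that nucleates the spindle. CEP proteins build the new centriole, carry the appendages of the older one, tether the centrioles to each other and turn the older centriole into the base of a cilium. In spermatogonia centrosomes organise the mitotic spindle, and in spermatids a centriole becomes the base of the flagellum.

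Promoter peaks were assigned in each of the libraries to 23 of the 36 CEP genes (63.9%, with a Wilson interval at 95% of 47.6 to 77.5), against 20.8% of all 16509 genes. Such genes are called bound below, and promoter means the authors' class, which covered up to 3 kb before the transcription start site (TSS). Another 6 CEP genes had a promoter peak in 1 library only, and 7 had no assigned peak in either library (19.4%, against 49.3% of all genes). Taken singly, each library gave 26 CEP genes with a promoter peak (72.2%), against 32.8% of all genes in replicate 1 and 24.9% in replicate 2. Because the family was chosen on these same lists, nothing is read from the difference. The interval treats genes as independent and covers counting error only, and the labels do not say whether the libraries came from separate animals. An IgG control library that the labels' protocols describe was not analysed here, and whether the authors used it when calling peaks is not known.

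**Figure D1:**
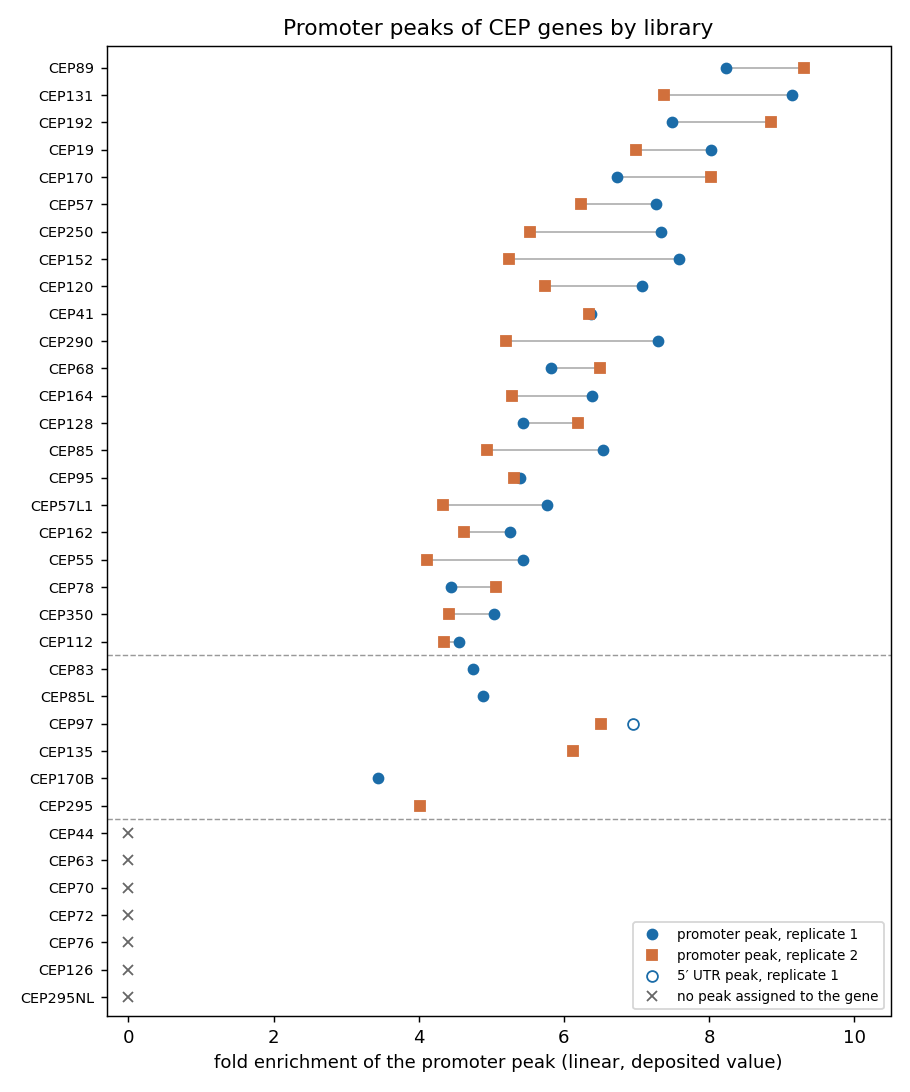
Deposited fold enrichment (linear, x axis) of the promoter peak of 35 of the 36 CEP genes in replicate 1 (circles) and replicate 2 (squares); grey lines join the libraries, an open circle marks a peak classed as 5′ UTR, and crosses at 0 mark genes with no assigned peak and are no measured fold. The 22 bound genes drawn run from CEP89 (8.24 and 9.31 in replicate 1 and replicate 2) down to CEP112 (4.55 and 4.35), above 6 genes with a promoter peak in 1 library and 7 with none.

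The fold enrichment of a peak is the peak caller's own value, read here as fragments at the summit over a local background, and whether that background came from the same library or a control is not known. Among the bound CEP genes its median was 6.39 in replicate 1 (range 4.45 to 9.14) and 5.53 in replicate 2 (4.12 to 9.31). Over all 3439 bound genes the medians were 5.85 and 5.45, with quartiles of 4.96 and 6.9 in replicate 1 and 4.67 and 6.39 in replicate 2. The strongest bound genes of the lists reached 17.4 and 18.4. Summit fragments, recovered from the deposited fold and p-value, had a median of 27 in replicate 1 (13 to 79) and 16 in replicate 2 (11 to 74) at the bound CEP genes, against 22 and 17 at all bound genes. A summit of 16 fragments carries an exact 95% Poisson interval of 9.15 to 25.98, so most differences in height between single CEP genes lie within counting error.

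CEP proteins that build centrioles accounted for 13 of the 36 genes, of which 7 were bound (53.8%, 29.1 to 76.8), against 20.8% of all genes. The role lists here and below are parts of a family picked for its bound share, so nothing is read from their shares. CEP192, a scaffold that recruits pericentriolar material and the kinase PLK4, had the most fragments of any CEP promoter. Its peak on chromosome 6 (96733266 to 96734607 in replicate 1) rested on 79 summit fragments in replicate 1 (62.55 to 98.46) and 74 in replicate 2 (58.11 to 92.9). The fold was 7.49 and 8.85, lower than at CEP89 in both libraries, with a local background of 9.68 and 7.47 fragments. These backgrounds were above the 95th percentile of promoter peaks (5.14 in replicate 1 and 4.02 in replicate 2), which held for no other bound CEP gene. The part of local background in the height of this peak was not tested.

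CEP152, the partner scaffold that places PLK4 on the parent centriole, had a fold of 7.58 from 31 fragments in replicate 1 and 5.25 from 17 fragments in replicate 2 (chromosome 1, 122875932 to 122876715 in replicate 1). CEP57, which organises the inner pericentriolar matrix, had 7.27 from 42 fragments and 6.24 from 26. Its relative CEP57L1 had lower folds of 5.77 and 4.34, from 27 and 16 fragments. CEP120, a protein of centriole elongation, gave 7.08 and 5.74, and CEP85, which acts with the assembly factor STIL, gave 6.54 and 4.94. CEP350, a large microtubule-anchoring protein, was near the lower edge with 5.04 and 4.41, from 14 and 12 fragments. In all 7 of these genes except CEP192 the fold was higher in replicate 1.

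The other 6 genes of centriole assembly were not bound. CEP135, a protein of the centriole core, had its sole peak at the promoter in replicate 2 (6.13-fold, 14 fragments), and so had CEP295, needed to convert a new centriole into a centrosome (4.02-fold, 9 fragments). CEP97, which caps centrioles together with CCP110, missed the rule by the class name alone. Its promoter peak in replicate 2 (6.51-fold, 19 fragments) overlapped a replicate 1 peak of 6.95-fold from 22 fragments that began 4 bp past the TSS and was therefore classed as 5′ UTR. CEP63, CEP76 and CEP44 had no assigned peak. CEP63, the partner of CEP152 in the ring around the parent centriole, nevertheless had a peak across its lower gene end in both libraries (chromosome 13, 75605227 to 75605998 in replicate 1), of 6.69-fold and 5.38-fold from 25 and 17 fragments. The authors assigned it to ANAPC13, a subunit of the anaphase-promoting complex whose end lies 45 bp away, since each peak went to 1 gene only.

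Of 7 genes listed for the appendages of the older centriole, 5 were bound (71.4%, 35.9 to 91.8), against 20.8% of all genes. All 7 had a promoter peak in replicate 1, against 32.8% of all genes. CEP89, a protein of the distal appendages that dock the centriole to the membrane, had the highest lower fold of the family, 8.24 in replicate 1 and 9.31 in replicate 2, from 37 and 29 fragments (chromosome 6, 42815125 to 42815772 in replicate 1). These folds stood at percentiles 91.5 and 98.5 of all bound genes. CEP164, another distal appendage protein that starts cilium formation, had 6.39 and 5.28 from 18 and 14 fragments. CEP170, of the subdistal appendages that anchor microtubules, had 6.73 and 8.02 from 34 and 36 fragments (chromosome 10, 16190861 to 16191696 in replicate 1). CEP128, of the subdistal appendages as well, had 5.43 and 6.2 from 15 fragments in each library. CEP112 was lowest at 4.55 and 4.35 from 14 and 12 fragments.

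The remaining members of that list had a promoter peak in replicate 1 alone. CEP83, which anchors the distal appendages, gave 4.75-fold from 20 fragments in replicate 1. A replicate 2 peak within 1 kb of the same gene start (4.37-fold, 15 fragments) lay on the other side of it, did not overlap the replicate 1 peak and was assigned to the neighbouring LOC110260797. CEP170B, a relative of CEP170 on an unplaced scaffold, gave 3.44-fold from 11 fragments, the lowest promoter fold of the family.

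All 6 genes listed for the cilium and its transition zone that carry a CEP symbol in the table were bound (100%, 61.0 to 100). The share was 63.9% over the whole CEP family and 20.8% over all genes. Since the family was picked for its bound share, nothing is read from the share of this part of it. CEP19, which brings the GTPase RABL2 to the ciliary base, led with 8.02 and 6.99 from 29 and 20 fragments (chromosome 13, 133419599 to 133420573 in replicate 1). CEP290, a transition zone protein mutated in human ciliopathies, had 7.3 from 25 fragments in replicate 1 and 5.2 from 14 in replicate 2. CEP41, which supports tubulin glutamylation in the cilium, was the most even, with 6.37 and 6.35. CEP162 of the transition zone had 5.26 and 4.62, and CEP78, a centriole protein also needed for sperm flagella in mouse and human, 4.45 and 5.07. CEP162 and CEP78 rested on 11 to 15 fragments. Another 2 names of that list appear under older symbols: FOPNL (CEP20) had promoter peaks of 5.79-fold and 3.98-fold in replicate 1 and replicate 2, and FGFR1OP (CEP43) had no assigned peak. They are not counted among the 36.

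CEP131, a component of the satellites that carry proteins to the centrosome, had the highest fold of the family in replicate 1, 9.14 from 35 fragments, with 7.38 from 23 fragments in replicate 2. Its peak was also the only one of the bound genes more than 1 kb from the TSS, at chromosome 12, 1535449 to 1536514 in replicate 1, with the nearest edge 1386 bp upstream in replicate 1 and 1492 bp upstream in replicate 2. The other CEP genes listed for satellites, CEP72 and CEP126, had no assigned peak, and no peak lay within 1 kb of either end of them. Both CEP genes listed for the linker between centrioles were bound, against 20.8% of all genes. CEP250 (C-NAP1) had 7.34 and 5.53 from 28 and 15 fragments, and CEP68 had 5.82 and 6.5 from 27 and 21 fragments. Linker proteins without a CEP name are not in this count.

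CEP55 directs the final cut of cell division, and in mouse germ cells TEX14 binds it so that the bridge between daughter cells stays. Its promoter peak had 5.43-fold from 18 fragments in replicate 1 (10.67 to 28.45) and 4.12-fold from 11 fragments in replicate 2 (5.49 to 19.68), the lowest fold of the bound CEP genes in replicate 2, on chromosome 14, 104956731 to 104957312 in replicate 1. CEP55 was the single bound CEP gene lost when only peaks with a −log10 q-value of at least 3 were kept, which left 22. CEP95 had 5.39 and 5.31 from 28 and 23 fragments. CEP85L, a relative of CEP85, had 1 peak, at its promoter in replicate 1 (4.88-fold, 17 fragments). CEP70 and CEP295NL had no assigned peak and none within 1 kb of a gene end.

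The 6 genes with a promoter peak in 1 library overlapped the bound genes in height. Their promoter peaks had 11 to 20 fragments in replicate 1 and 9 to 19 in replicate 2, while the bound genes started at 13 fragments in replicate 1 (CEP78) and 11 in replicate 2 (CEP55 and CEP162). CEP97 and CEP135, at 6.51-fold and 6.13-fold in replicate 2, stood above the median of 5.53 of the bound CEP genes in that library. Among promoter peaks of 13 to 19 fragments, the share of genes with a promoter peak in the other library depended on the list. Starting from replicate 1 it was 8 of 9 CEP genes, against 52.1% of all 2151 genes, and starting from replicate 2 it was 11 of 13 CEP genes, against 85.3% of all 1822 genes. At 12 fragments or fewer it was 0 of 1 CEP genes, against 26.8% of 742 genes, from replicate 1. From replicate 2 it was 4 of 5, against 64.8% of 1051. At 20 to 29 fragments it was 9 of 10, against 78.8% of 1614, from replicate 1. From replicate 2 it was 6 of 6, against 96.4% of 908. From 30 fragments upwards it was 6 of 6 CEP genes, against 93.4% of 908 genes, from replicate 1 and 2 of 2, against 98.5% of 334, from replicate 2. Because the family was picked for promoter peaks in both lists, nothing is read from these shares. A CEP gene without a peak is one where none was detectable here, not one shown to be free of binding.

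**Figure D2:**
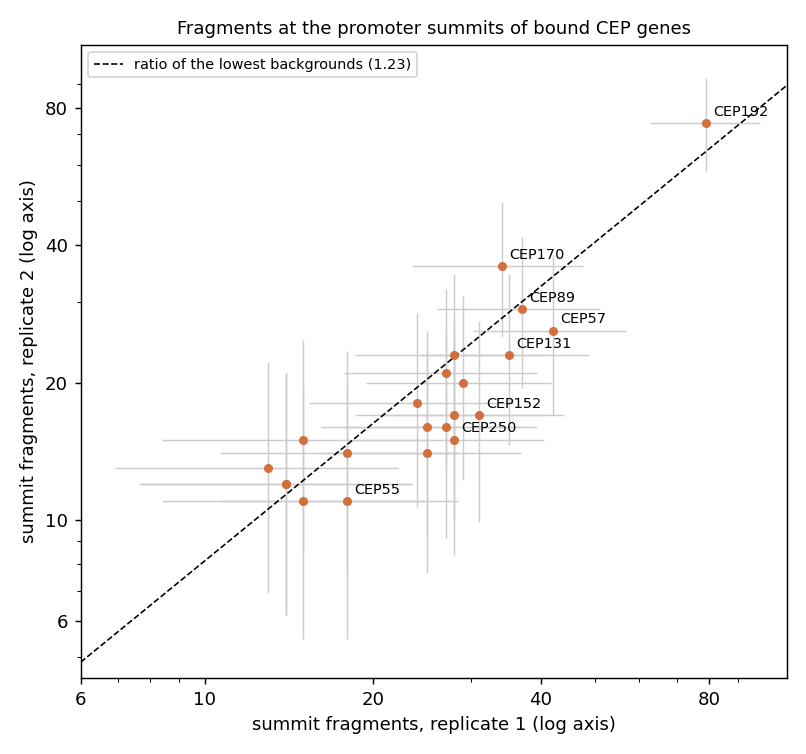
Fragments at the summit of the promoter peak of 22 of the 23 bound CEP genes in replicate 1 (x) and replicate 2 (y), on log axes, with exact 95% Poisson intervals; the dashed line is the ratio of the lowest backgrounds of the libraries, 1.23. CEP192 stands apart at 79 and 74 fragments, and the rest lie between 11 and 42 along the line.

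Heights in the libraries followed each other. Across the 23 bound genes the summit fragments of replicate 1 over those of replicate 2 had a median ratio of 1.33 and reached 1.87 at CEP250, against a median of 1.31 over all bound genes. The lowest backgrounds of the lists, used in place of depth because the files give no sequencing depth and unable to show it if a control set them, had a ratio of 1.23. For each of the 23 genes the exact 95% binomial interval of its own ratio held 1.23, for example 0.979 to 3.51 at CEP152 and 0.768 to 1.49 at CEP192. A gene had to pass in both lists to enter, which narrows that spread. Across these 23 genes, which share their libraries, Spearman's rho between the folds of the libraries was 0.61, close to 0.59 over all bound genes, and between the fragments 0.85. The fold was higher in replicate 1 at 16 of the 23 genes and in replicate 2 at 7, among them CEP89, CEP192, CEP170, CEP128, CEP78 and CEP68.

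All 23 bound genes had promoter peaks that overlapped between the libraries by at least 1 bp, from 67 bp shared at CEP128 to 1007 bp at CEP57L1. In 17 of them the overlap covered at least 50% of both peaks. The summits of a gene lay a median of 133 bp apart between the libraries, from 2 bp at CEP57 and CEP95 to 764 bp at CEP57L1. Peaks at the bound CEP genes had a median width of 784 bp in replicate 1 and 611 bp in replicate 2, against 662 and 550 bp at all bound genes.

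**Figure D3:**
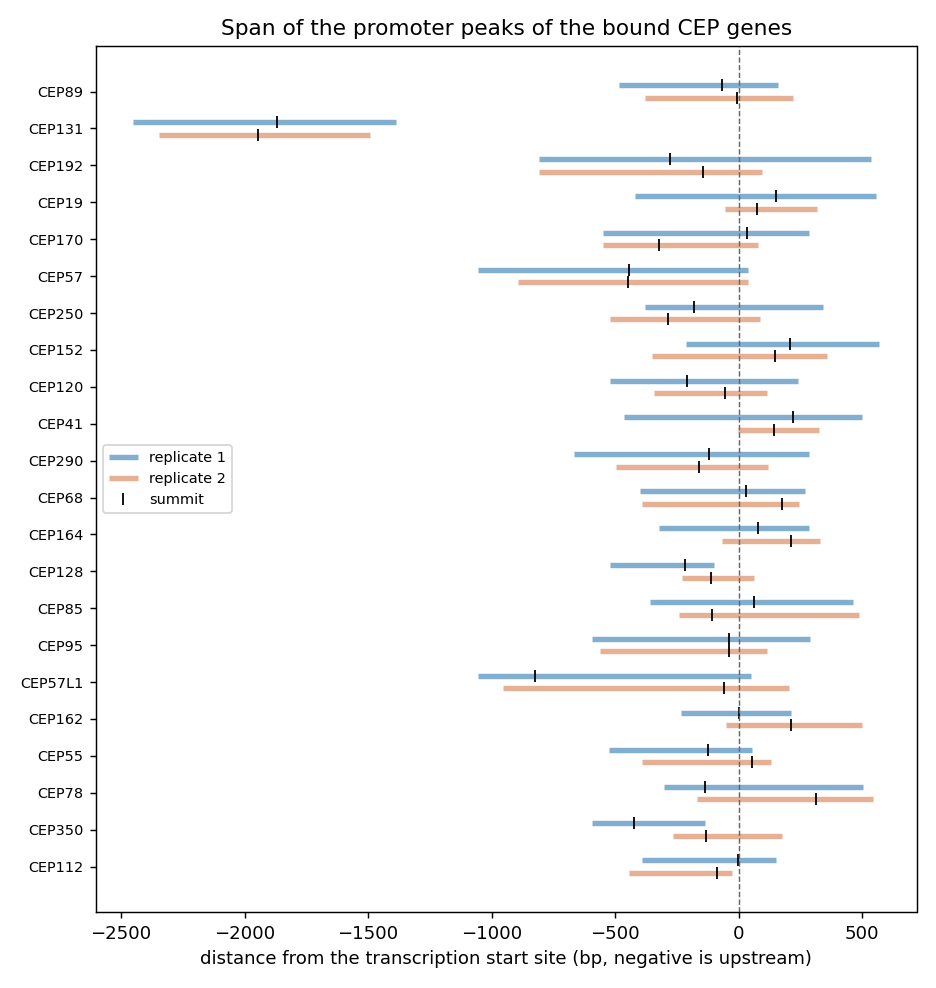
Span of the promoter peak of 22 of the 23 bound CEP genes relative to the TSS of the transcript it was assigned to (x axis, bp, negative is upstream), in replicate 1 (upper bar) and replicate 2 (lower bar), with the summit as a tick; genes run by mean fold. Peaks cover the TSS at 19 of the 22 genes in replicate 1 and 20 in replicate 2, and CEP131 lies wholly upstream.

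Most of these peaks covered the TSS, at 20 of 23 bound CEP genes in replicate 1 (87%) and 21 in replicate 2 (91.3%), against 86.9% and 84.2% of all bound genes. The median summit lay at −121 bp in replicate 1 and −61 bp in replicate 2, upstream of the TSS, against −59 and −57 bp for all bound genes. Measured from the gene start of the RefSeq table in place of the deposited transcript, the replicate 1 median moved to −61 bp. Summits fell within 200 bp of the TSS at 13 CEP genes in replicate 1 (56.5%) and 16 in replicate 2 (69.6%), against 63.7% and 64% of all bound genes. Summits downstream of the TSS were found at 8 CEP genes in each library, as at CEP152 (208 and 149 bp) and CEP19 (150 and 75 bp). Upstream examples were CEP57 (−445 and −447 bp) and CEP290 (−121 and −161 bp). At CEP120 the distances (−210 and −56 bp) were deposited from different transcripts, and the summits lay 5 bp apart. At CEP57L1 the summit differed most, at −825 bp in replicate 1 and −61 bp in replicate 2, although the peaks shared 1007 bp.

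Some CEP starts lie beside another gene. Of the 23 bound CEP genes, 8 had an end of another protein-coding gene within 1 kb of their own start (34.8%), against 22.4% of all 3439 bound genes. Among these neighbours were SDCCAG8, itself a centrosomal protein gene, 99 bp from the start of CEP170, DDX5, an RNA helicase, 61 bp from CEP95, TMTC3 131 bp from CEP290, FAAP24, a Fanconi anaemia protein, 189 bp from CEP89, PIGX 172 bp from CEP19, FAM76B 474 bp from CEP57, and SESN1, a sestrin that restrains mTORC1, 615 bp from CEP57L1. At 7 of the 8 the peak covered both gene ends in both libraries, the exception being CEP57. Where a peak covers both gene ends but is assigned to 1 gene, the lists cannot tell which gene the peak belongs to. None of these neighbours except SESN1 had an assigned peak of its own in either library. The gene table gives no strand, and strand is known here only for genes with a deposited peak. Counted at either gene end, where no strand is needed, 14 of 36 CEP genes had such a neighbour (38.9%), against 30.5% of all genes. Of the CEP genes with such a neighbour 10 of 14 were bound (71.4%), against 24.4% of all 5033 genes with one. Of those without, 13 of 22 were bound (59.1%), against 19.3% of all 11476 genes without one. Both shares rest on the calls that chose the family.

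Since each peak was assigned to 1 gene, the count was repeated by position, whatever gene a peak was assigned to. A peak within 1 kb of either gene end in both libraries was found at 24 CEP genes (66.7%), against 29% of all genes. CEP63, CEP83 and CEP97 entered by this count, CEP83 through different peaks in the libraries, and CEP131 and CEP68 dropped out. At CEP68 the peak lay at the start of a deposited transcript inside the longer gene of the table. With any assigned peak in both libraries in place of a promoter peak, 24 CEP genes were counted (66.7%), against 28.2% of all genes, CEP97 being the added one.

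The family was picked for promoter peaks, so a high promoter share of its peaks follows from the choice and nothing is read from it. Promoters held 26 of the 31 CEP peaks in replicate 1 (83.9%) and 26 of 28 in replicate 2 (92.9%), against 60.8% and 64% of all peaks. Outside promoters, 2 places recurred in both libraries. An intronic peak of CEP192 in intron 8 of 53, 26.2 kb from the TSS (chromosome 6, 96707149 to 96707612 in replicate 1), had 6.59-fold from 24 fragments and 5.29-fold from 17. A distal peak 5.25 kb upstream of CEP85 in replicate 1 (chromosome 6, 83645289 to 83645763) had 6.69-fold from 25 fragments in replicate 1 and 4.23-fold from 12 fragments in replicate 2, against 6.54-fold from 28 and 4.94-fold from 17 at the CEP85 promoter. Peaks in an exon of CEP164 (4.03-fold, 10 fragments) and an intron of CEP68 (3.38-fold, 7 fragments) were in replicate 1 alone.

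**Figure D4:**
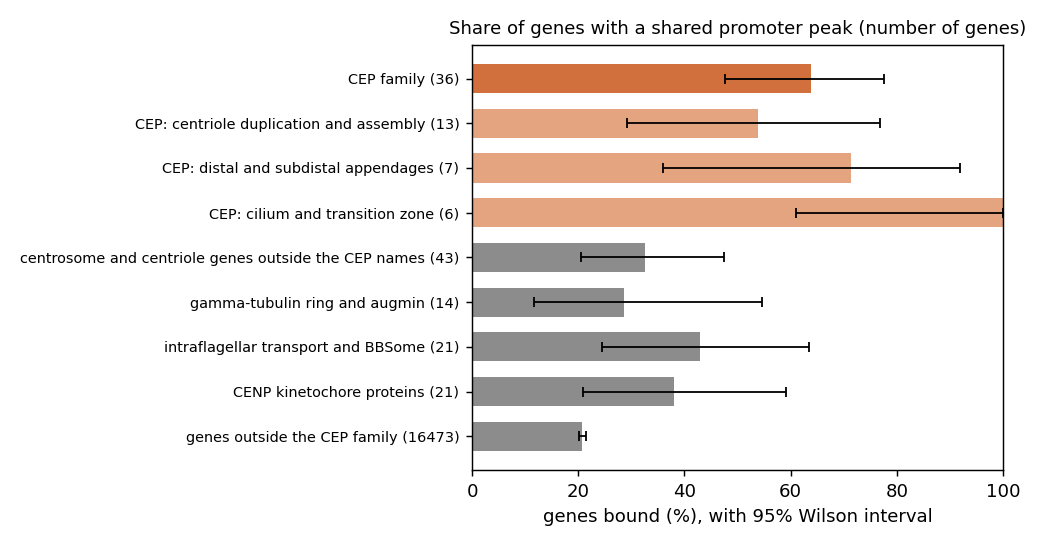
Percent of genes with a promoter peak in both libraries (x axis, bars, with 95% Wilson intervals) for the CEP family, its role lists of 6 genes or more (light bars), related lists and all genes outside the family, with the number of genes in brackets. The CEP family is at 63.9%, the related lists between 28.6% and 42.9%, and genes outside the family at 20.7%. A peak counts only for the gene it was assigned to.

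Lists of genes for neighbouring structures had shares between those of the CEP family and of all genes. Of 43 other centrosome and centriole genes, 14 were bound (32.6%, 20.5 to 47.5). In these lists genes are ranked by the lower fold of the libraries. The 14 were led by CETN2, a centrin of the centriole (8.33 and 9.05-fold in replicate 1 and replicate 2), CCDC61 (9.26 and 7.49) and AURKA, the mitotic kinase (9.56 and 7.07). Of 14 genes of the gamma-tubulin ring, which nucleates microtubules, and of augmin, 4 were bound (28.6%, 11.7 to 54.6), led by HAUS8 (5.84 and 5.8). Of 21 genes of intraflagellar transport and the BBSome, which move cargo in cilia, 9 were bound (42.9%, 24.5 to 63.5), led by IFT122 (9.77 and 8.43). Of 21 CENP genes of the kinetochore, 8 were bound (38.1%, 20.8 to 59.1), led by CENPN (7.62 and 8.76). All 4 shares lie above the 20.8% of all genes, as does that of the CEP family. Of the 4 intervals, only that of intraflagellar transport and the BBSome lies wholly above 20.8%. The others reach down to that value or below it, so they do not separate those shares from that of all genes. The difference of the CEP family from the 4 lists was not tested because the family was chosen on these peak lists.

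The bound CEP genes lay on 13 of the 15 chromosomes that hold a CEP gene. Their median gene length was 63.8 kb (8.38 kb at CEP19 to 476 kb at CEP112), against 51.8 kb for the CEP genes that were not bound. Over all genes the medians were 29.9 kb for bound and 24.1 kb for the others.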

How the data were processed

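The authors deposited 1 peak list per library, annotated to RefSeq transcripts, on Sscrofa11.1 per the submitters' processing notes. Which aligner, caller, control and annotation program they ran was not given in the sources used here. Per the file headers, the deposited values are a fold enrichment (a linear ratio), p-value and q-value as −log10, a whole-number score (not used), and the gene, class and distance to the TSS. The lowest −log10 q-value was 1.31 in both lists. Summit fragments and background were solved from fold = (fragments + 1)/(background + 1) and the Poisson p-value, within a relative tolerance of 1e-05, for 99.92% and 99.9% of peaks of replicate 1 and replicate 2 and all CEP peaks. The step was tested on data simulated with this same formula, which checks the solving and not the formula itself. Median summit fragments were 16 and 14 over all peaks.

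Genes were 16509 distinct protein-coding symbols other than LOC numbers. For a gene with several promoter peaks the strongest was used. Intervals are Wilson for shares, exact for fragments and ratios. No test was run: there was 1 group, and the lists chose the family. The members, lists and alternatives were chosen with earlier results of these data known. Of other lists the 3 or fewer strongest bound genes, by the lower fold of the libraries, are named. Every CEP gene is named except 1, which is counted but not reported here. The software was Python 3.11.15 with scipy 1.17.1, pandas 2.3.3, numpy 2.4.6 and, for figures, matplotlib 3.10.9. Planned promoter motif counts and printed sequences were not made, as no sequence was used here.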

Additional observations from a re-analysis of the deposited data

How the results depend on the processing

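The count of 23 bound CEP genes (in brackets, the share of all genes that were bound: 20.8%) became 22 under a −log10 q-value of at least 3 (18.4%), 23 with lists of equal length (19.2%), 22 with a nearest edge within 1 kb (20.5%), 24 with any assigned peak (28.2%) and 24 with peaks near either gene end (29%). It was 26 without replicate 1 (24.9%) and 26 without replicate 2 (32.8%). It fell to 15 with peaks at or above the median fold of their list (4.98 in replicate 1 and 5 in replicate 2), against 11.6% of all genes. The 8 genes lost, among them CEP55, CEP57L1, CEP78, CEP85, CEP112, CEP162 and CEP350, had a fold below that median in at least 1 library. The median summit in replicate 1 moved to −61 bp with gene starts of the RefSeq table, through CEP genes whose deposited transcript starts elsewhere. Counted by peaks near either gene end (1 kb), the satellite list had 0 bound genes and the linker list 1, because CEP131 and CEP68 peaks lie farther away. Median folds with 1 library left out ran from 5.55 to 6.09. The gene table has no strand, so either gene end was used in place of the start. No paired analysis was possible because there was 1 group. Most single peaks rest on 11 to 30 fragments, which limits comparisons between genes and the meaning of a missing peak.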

Other observations

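Gene names that share a letter prefix before a number formed 82 families of at least 20 genes. By the share bound in both libraries CEP came first (63.9% of 36), followed by GTF, general transcription factors (50% of 22), AP (48.3% of 29), RAD, mostly recombination and repair genes (45% of 20), and SEC, of protein secretion (44% of 25). KRT keratins (35 genes), MMP metalloproteinases (20), PDE phosphodiesterases (25), CDH (22) and CLEC (22) had 0 bound. This order is the one the CEP genes were picked from and no test was made of it.

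Several peaks inside CEP genes carry another gene's name. A peak 2.55 kb inside the lower end of CEP112 was assigned to the promoter of AXIN2, a WNT feedback inhibitor, in both libraries (4.45-fold and 4.84-fold in replicate 1 and replicate 2), and 1 near the upper end of CEP85 to SH3BGRL3 (4.24-fold and 3.84-fold). Peaks in exon 17 of CEP131 (3.73-fold, 12 fragments) and intron 43 of CEP290 (3.51-fold, 6 fragments) were found in replicate 2 only, under the names LOC106505374 and C5H12orf29. A replicate 1 peak near the upper end of CEP44 (5.42-fold, 17 fragments) was assigned to FBXO8.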
